A study of Mus musculus with 64 samples.

Results

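The contractile apparatus of smooth muscle was followed here through 10 genes, Acta2, Tagln, Myh11, Cnn1, Cnn3, Myl9, Tpm1, Tpm2, Mylk and Mrvi1, in single cells sorted from mouse teeth. The genes were taken by symbol from the 24530 symbols of the count table, of which 14282 had at least 1 read in these cells. They were described by tissue and within 15 mural-like cells, the cells with at least 500 CPM of Rgs5 (CPM, a gene's counts scaled to the same total in every cell) and 0 reads of Csf1r. Rgs5 is a regulator of G-protein signalling that is abundant in pericytes, and Csf1r is the receptor for the macrophage growth factor CSF1. The 48 cells with at least 1 Csf1r read served as the second class and 1 cell fell into neither.

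The series holds 64 single-cell libraries, 32 from molars and 32 from incisors of XLacZ4 mice, a line with a lacZ reporter known for its activity in vascular mural cells. Dissociated cells were stained with FDG, which fluoresces once beta-galactosidase has cut it, and the positive cells were sorted and taken through Smart-Seq2, a full-length protocol for polyA RNA. By the labels the groups differ in the tooth. All cells share the strain and the sort and all carry the label of pericytes, there is no sorted negative control, and no label gives the age, sex or number of the animals. Since the labels name 0 animals, each tissue was treated as 1 sample. No test was made, and every difference between tissues or cell classes below has no replicate check.

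Smooth muscle cells shorten when myosin filaments pull on actin filaments. A rise in calcium activates myosin light chain kinase, which phosphorylates the regulatory light chain of myosin and so switches on its motor, while tropomyosin, calponin and transgelin bind the actin filament. Vascular smooth muscle cells carry the full apparatus, and pericytes, the mural cells of capillaries, are known to carry it to varying degrees. Many genes of the apparatus are switched on by serum response factor (SRF) with its partner myocardin, through a DNA element called the CArG box.

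The 10 genes lie at separate places in the genome, given here for GRCm38 (mm10) with GENCODE M21. Acta2 (smooth muscle alpha-actin) is at chr19:34241090-34255590 on the minus strand, and Myh11 (the smooth muscle myosin heavy chain) is at chr16:14194535-14291372, minus strand. Myl9 (the regulatory light chain of smooth muscle myosin) is at chr2:156775420-156781658, plus strand, and Mylk (myosin light chain kinase) is at chr16:34745210-35002420, plus strand. The tropomyosins Tpm1 and Tpm2 are at chr9:67022590-67049406 and chr4:43514711-43523765, both on the minus strand. Tagln (transgelin, or SM22-alpha) is at chr9:45929619-45936058, minus strand, and the calponins Cnn1 and Cnn3 are at chr9:22099216-22109630 and chr3:121426497-121458207, both on the plus strand. Mrvi1, which binds the inositol trisphosphate receptor and limits calcium release under cGMP-dependent kinase, is at chr7:110868266-110982461, minus strand. Exons of Tagln overlap those of Pcsk7, exons of Mylk those of E130310I04Rik and exons of Mrvi1 those of Gm16336, each on the opposite strand. Whether the counting used strand is not stated, so reads in these overlaps cannot be assigned. Reads may likewise be shared between Acta2 and the other actin genes and among the tropomyosin genes, which are close in sequence.

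CArG sequences are shown beside 2 of these genes, Acta2 and Myl9, the only ones where the search below found a match. The 250 bases before the RefSeq start site (GRCm38.p6) were searched on both strands for the CArG box, 2 C, a core of 6 A or T, then 2 G, which reads the same way on the opposite strand. The strict form was found in 1.47% of 32851 RefSeq windows and in 1 of the 9 windows of the contractile genes, that of Myl9. With up to 1 other base in the core it was found in 8.59% of all windows and in 2 of these 9, those of Myl9 and Acta2. The windows cover 8 of the 10 genes, and Tagln and Myh11 had none to search. The matches are printed 5′ to 3′ on the strand of the gene, with 10 bases on each side, and capitals mark the 10-base match. The matches of Myl9, at chr2:156775293-156775322 and chr2:156775355-156775384, begin 161 and 99 bases before the RefSeq start and lie outside the exons of GENCODE. Those of Acta2, at chr19:34255438-34255467 and chr19:34255388-34255417, begin 84 and 34 bases before the RefSeq start, inside the longer first exon that GENCODE gives this gene.
Myl9, first match: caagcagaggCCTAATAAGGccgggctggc
Myl9, second match: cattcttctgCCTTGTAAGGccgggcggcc
Acta2, first match: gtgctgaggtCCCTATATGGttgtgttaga
Acta2, second match: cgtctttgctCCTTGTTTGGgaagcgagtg
The only strict match is the first of Myl9, and its surroundings are given over the 206 bases from chr2:156775214-156775419 (plus strand), up to the first exon base of GENCODE.
Myl9, upstream stretch: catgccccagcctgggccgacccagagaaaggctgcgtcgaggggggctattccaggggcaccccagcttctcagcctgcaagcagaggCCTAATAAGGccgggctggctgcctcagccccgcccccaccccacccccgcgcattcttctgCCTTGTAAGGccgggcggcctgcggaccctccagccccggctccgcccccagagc
The matches are descriptions of sequence, and no measurement here bears on whether SRF binds them.

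Total counts ran from 514492 to 3171734 per cell. The 15 mural-like cells (molar cells 1, 4, 13, 15, 17, 19, 22, 23 and 31 and incisor cells 2, 10, 22, 24, 28 and 32) had 1230795 to 3171734 counts, with a median of 2767909, against a median of 1427068 in the 48 cells with Csf1r. Leaving out Rgs5, which defines the class, 10 of 10 pericyte markers were read in the mural-like cells, with a summed level of 1074 to 11281 CPM. In the Csf1r cells 8 of these 10 were read, at 0 to 1795 CPM. With Rgs5 counted, single mural-like cells held 4 to 9 of the 11 pericyte markers. Of the macrophage markers other than Csf1r, 2 of 11 were read in the mural-like cells, Cd68 with 104 reads in molar cell 1 (33.3 CPM) and Ptprc with 1 read in incisor cell 32, and C1qa and Lyz2 were among those at 0. In the 48 Csf1r cells, which go against the label of pericytes, 11 of 11 macrophage markers other than Csf1r were read (2948 to 59903 CPM), and they are called macrophage-like here. Fibroblast markers were also present in the mural-like cells (5 of 9, 173 to 11787 CPM, with Dcn, Lum, Pdgfra and Dpt at 0). Of 8 endothelial markers 2 were read, Tie1 with 1063 CPM in molar cell 4 and Emcn with 24.2 CPM in molar cell 31, while Pecam1 and Cdh5 were among those at 0. Of 6 skeletal muscle markers 2 were read, with Myh1, Myh4, Tnnt3 and Ckm at 0. Their summed level was highest in molar cell 22 (959 CPM) and was 204 CPM in molar cell 19. Incisor cell 2 was the weakest mural-like cell, with 570 CPM of Rgs5 where the others had 14729 to 49583, 922 genes read, and 11.9% and 15.3% of its counts in Rn45s and Malat1. Incisor cell 13 carried both marker sets, with 11 of 12 macrophage markers and 8 of 11 pericyte markers, and its 839 Csf1r reads placed it with the macrophage-like cells despite 2301 CPM of Rgs5. The next cell below the Rgs5 threshold, incisor cell 25, had 167 CPM. Molar cell 10, the cell in neither class, had 5 of 7 dental epithelium markers, with 346 reads of Tpm2 and 55 of Tpm1.

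Within the mural-like cells the contractile genes were split from cell to cell rather than spread evenly. The 10 genes together gave 0.898% of the summed counts of these cells, 0.954% in molar and 0.808% in incisor cells. The share ran from 0.0661% in incisor cell 2 to 3.69% in molar cell 22, the cell with the highest total count of all. The number of contractile genes read ran from 3 to 9 in the molar mural-like cells (median 6) and from 2 to 9 in the incisor ones (median 6.5), and 9 genes were read in molar cell 1 and incisor cell 28.

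**Figure D1:**
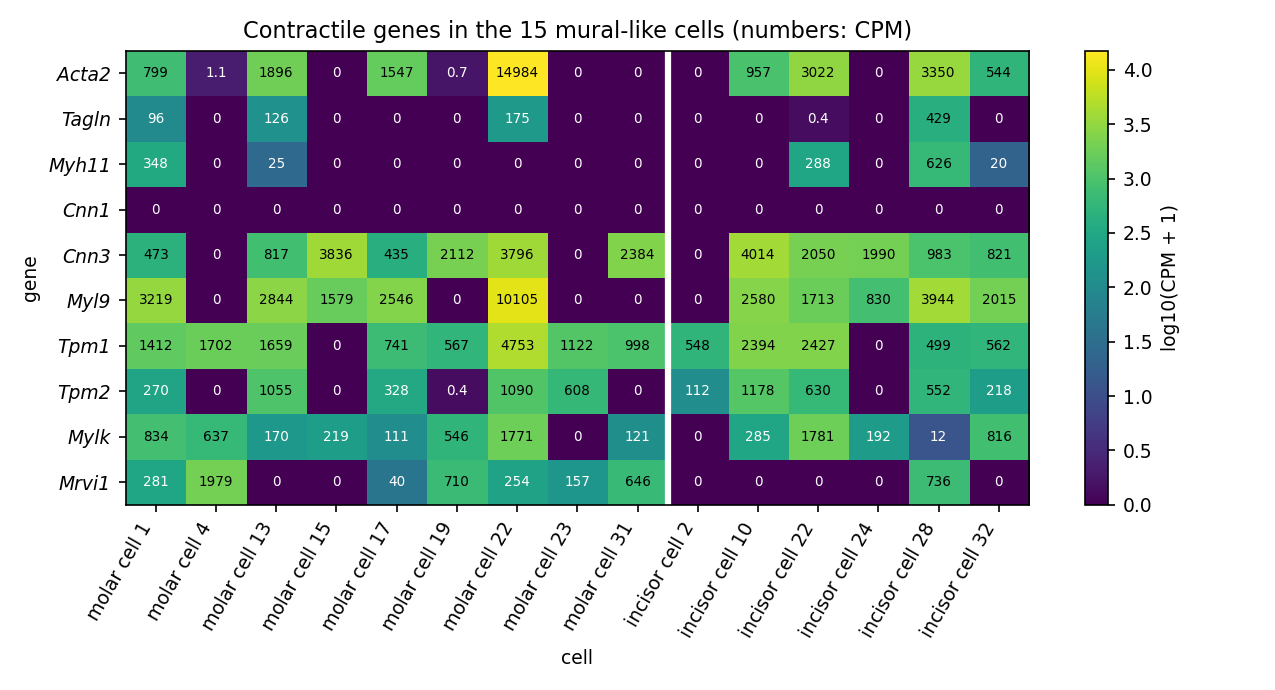
CPM of each contractile gene (rows) in each mural-like cell (columns, molar left of the white line, incisor right), with colour on a log10(CPM + 1) scale. The 8 columns with Acta2 above 500 CPM are also filled for Myl9, Tpm1 and Mylk are filled in 13 columns each, and the row of Cnn1 is at 0 throughout.

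Acta2 was either high or nearly absent in a cell. Among the 9 molar cells it stood at 14984 CPM in cell 22, 1896 in cell 13, 1547 in cell 17 and 799 in cell 1, at 1.1 and 0.7 CPM (2 reads each) in cells 4 and 19, and at 0 in cells 15, 23 and 31. Among the 6 incisor cells it stood at 3350 CPM in cell 28, 3022 in cell 22, 957 in cell 10 and 544 in cell 32, and at 0 in cells 2 and 24. The cells thus fell into 8 with at least 544 CPM and 7 with 2 reads or fewer, with none between, in both teeth. Myl9 was read in those same 8 cells, at 1713 to 10105 CPM, and also in molar cell 15 (1579 CPM) and incisor cell 24 (830 CPM), and it was at 0 in the other 5.

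Myh11, the motor subunit that marks differentiated smooth muscle most narrowly, was read in 5 of the 15 cells. Its levels were 348 CPM in molar cell 1 and 25.5 in molar cell 13, and 626, 288 and 19.96 CPM in incisor cells 28, 22 and 32. Myh11 was at 0 in molar cell 22, where Acta2, Myl9 and Tpm1 were each at their highest. Per kb of exon, the summed level in the mural-like cells was 2035 CPM per kb for Myl9, 965 for Acta2 and 13.3 for Myh11. This scale allows for annotated exon length but not for which exons a transcript uses, so it compares genes only roughly. Rgs5 was at 6776 on this scale, above each of the contractile genes, but the cells were chosen by their Rgs5 level and its place follows in part from that.

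The genes of the thin filament differed in how widely they were read. Tpm1 was read in 13 of the 15 cells, from 499 to 4753 CPM, and was at 0 in molar cell 15 and incisor cell 24. Tpm2 had at least 5 reads in 10 cells, from 112 CPM in incisor cell 2 to 1178 in incisor cell 10, with 1 read in molar cell 19. Each of the 10 cells with Tpm2 also had Tpm1, and 3 cells had Tpm1 without Tpm2 at 5 reads. Tagln was confined to few cells, with 96.1, 126 and 175 CPM in molar cells 1, 13 and 22, 429 CPM in incisor cell 28 and 1 read in incisor cell 22. Per kb of exon, Tpm1 stood at 213, Tpm2 at 149 and Tagln at 31.7 CPM per kb.

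The calponins split completely. Cnn3, the acidic calponin that is also found in non-muscle cells, had at least 5 reads in 12 of the 15 mural-like cells, at 435 to 3836 CPM in 7 molar cells and at 821 to 4014 CPM in 5 incisor cells. Cnn1, the calponin of differentiated smooth muscle, had 0 reads in all 64 cells. With 0 of 9 molar and 0 of 6 incisor mural-like cells, up to 33.3% and 50% of such cells could still hold a read of Cnn1, so its absence is not shown. With all 15 cells, Cnn3 stood at 546 CPM per kb of exon, below Myl9 and Acta2 and above the other contractile genes. Molar cell 22 gave 57.9% of the mural-like reads of Acta2 and 18.8% of those of Cnn3. Without that cell the summed level of Acta2 fell from 2119 to 971 CPM, so the place of Acta2 above Cnn3 may rest on it. The order of these 2 genes per kb without that cell was not worked out.

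Of the regulators, Mylk was read more widely than Mrvi1. Mylk had at least 5 reads in 13 cells, from 11.7 CPM (35 reads) in incisor cell 28 to 1781 in incisor cell 22 and 1771 in molar cell 22, and was at 0 in molar cell 23 and incisor cell 2. Mrvi1 was read in 7 of 9 molar cells (77.8%, exact Clopper-Pearson interval 40.0 to 97.2%), at 1979 CPM in cell 4, 710 in cell 19, 646 in cell 31, 281 in cell 1, 254 in cell 22, 157 in cell 23 and 40.3 in cell 17. In incisors Mrvi1 was read in 1 of 6 cells (16.7%, 0.421 to 64.1%), at 736 CPM in cell 28. The intervals of the 2 shares overlap, and they cover counting error only. Per kb of exon Mylk and Mrvi1 were at 48.8 and 45.0 CPM per kb, below Tpm2 (149) and above Tagln (31.7) and Myh11 (13.3).

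Pairs of genes showed which of them were read together. At 5 or more reads, each of the 8 cells with Acta2 also had Myl9, Tpm1, Tpm2, Cnn3 and Mylk, 5 of them had Myh11, 4 had Tagln and 4 had Mrvi1. The cells with Tagln and those with Myh11 all had Acta2 and Myl9, and 3 cells had Tagln and Myh11 together. Cnn3 and Mylk were read together in 12 of 13 cells with either. Mrvi1 followed a different set, with 4 cells that had Acta2 and 4 that did not. Spearman's rho over the 15 cells, on CPM, was 0.83 for Acta2 and Myl9, 0.78 for Acta2 and Tagln and 0.73 for Acta2 and Tpm2, but 0.15 for Acta2 and Cnn3, 0.10 for Acta2 and Mrvi1 and -0.21 for Tpm2 and Mrvi1. These correlations are descriptions over cells that differ in depth, and many rest on cells tied at 0.

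The contractile genes were higher in cells with more genes read. Their mean log2(CPM + 1) had a rho of 0.84 with the number of genes read (922 to 3886) and 0.78 with the total count over the 15 cells, and 0.81 and 0.73 without incisor cell 2. For single genes the rho with the number of genes read was 0.77 for Acta2, 0.73 for Myl9 and 0.05 for Mrvi1. With the percent of counts in Malat1, a nuclear RNA, the rho of their mean was -0.69, and with Rgs5 it was -0.26 (-0.55 without incisor cell 2). With the summed fibroblast markers it was 0.01. The part of depth and RNA content in the split between cells was not tested.

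**Figure D2:**
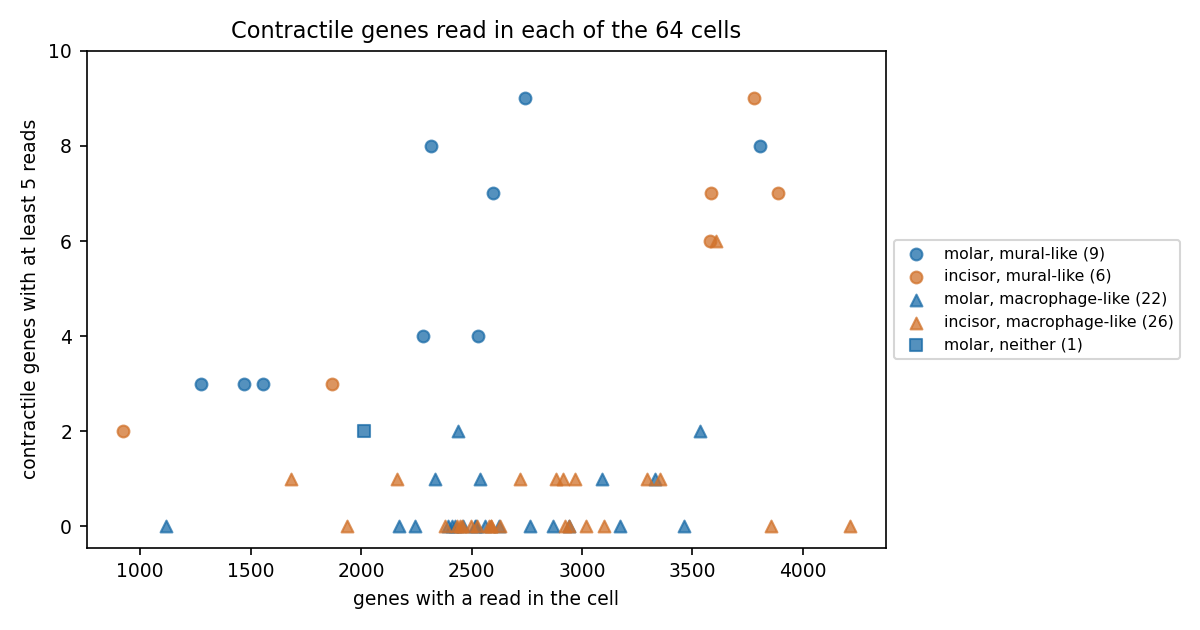
Contractile genes with at least 5 reads (vertical axis) against genes with a read (horizontal axis) in each of the 64 cells, by tooth (colour) and class (shape). Mural-like cells with 922 to 1870 genes read hold 2 or 3 of the 10 genes, and those with 2282 or more hold 4 to 9, whereas macrophage-like cells other than incisor cell 13 hold 0 to 2 at any number of genes read.

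The genes whose level followed the mean of the 10 contractile genes most closely over the 15 cells, among 1374 genes read in at least 8 of them, were Bsg (rho 0.93), Tuba1a (0.89), Tpm4 (0.87), Tuba1c (0.85) and Myef2 (0.84). The median rho over the genes compared was 0.27. Bsg encodes the membrane protein basigin, Tuba1a and Tuba1c encode alpha-tubulins that are close in sequence, and Tpm4 encodes a tropomyosin. Each of the 5 also had a rho of 0.73 to 0.77 with the number of genes read. Without molar cell 22 their rho with the contractile genes stayed between 0.82 and 0.92. Myef2 was low, with a median of 0.374 CPM and a highest value of 81.7.

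The comparison of molar with incisor asks whether contractile genes differ between the mural cells of a tooth that grows for life, the incisor, and one that does not. In the summed counts of the mural-like cells 7 of the 9 measured contractile genes lay within 2-fold between the teeth. Of the 9 measured genes 1 was at least 2-fold higher in molar cells, Mrvi1, and 1 was at least 2-fold higher in incisor cells, Myh11. These counts were 1 and 3 without molar cell 22, and 3 and 0 without incisor cell 28. Over 7923 genes measured in these cells, 31.4% were at least 2-fold higher in molar and 37.3% in incisor cells. The median log2 ratio of molar over incisor was -0.16 for the 9 genes and -0.15 for all genes measured.

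Mrvi1 had a median of 254 CPM in molar cells (0 to 1979) and of 0 in incisor cells (0 to 736). The summed levels were 409 and 147 CPM, a ratio of 2.79 (2.66 to 2.92, exact Poisson interval on reads). Every incisor read came from cell 28, and without that cell the molar level was at least 1639-fold higher, taking 3 reads over the group as the limit for 0. Molar cells 4, with 38.5% of the molar reads, and 19, 31 and 1 shared the molar signal, so that several cells carried it. Molar cell 4 was also the cell with the endothelial marker Tie1, and without it the log2 ratio of Mrvi1 was 0.89 (1.47 with it). The part of other cell types in this difference was not tested.

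Myh11 had a median of 0 CPM in molar cells (0 to 348) and of 9.98 in incisor cells (0 to 626), and the ranges overlap. The summed levels were 48.4 and 184 CPM, which is 3.79-fold higher in incisor cells (3.53 to 4.06). Molar cell 1 gave 94.7% of the molar reads and incisor cell 28 gave 68.0% of the incisor reads. Without incisor cell 28 the incisor level was 1.51-fold higher, and without molar cell 1 it was 61.9-fold higher.

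Acta2 had a median of 1.06 CPM in molar cells (0 to 14984) and of 750 in incisor cells (0 to 3350). The summed levels ran the other way, at 2492 CPM in molar and 1529 in incisor cells, a ratio of 1.63 (1.60 to 1.65), and molar cell 22 alone held 80.5% of the molar reads. Without that cell the molar level was 562 CPM and Acta2 was 2.72-fold higher in incisor cells. At 5 or more reads, Acta2 was present in 4 of 9 molar and 4 of 6 incisor cells. The plot of each cell's share of the reads shows molar cell 22 in the same place for several genes.

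**Figure D3:**
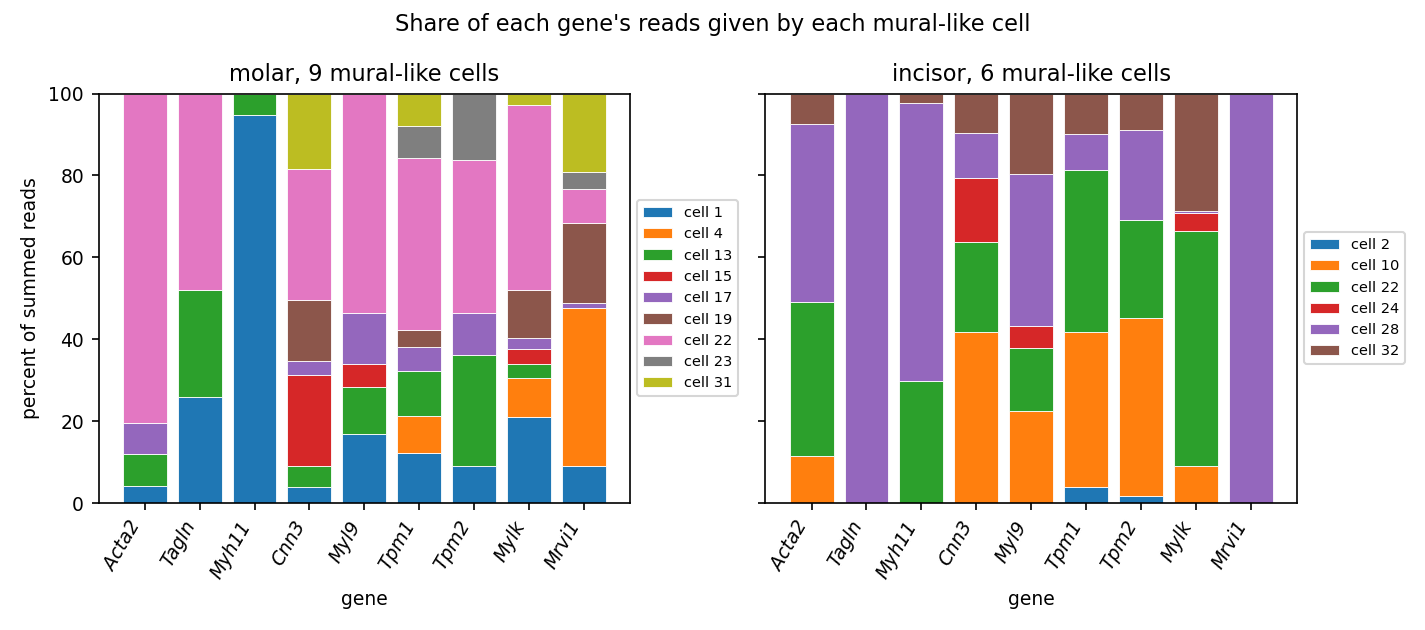
Percent of each gene's summed reads (vertical axis) given by each mural-like cell (colours, cell numbers as in the labels), for the 9 molar cells (left) and the 6 incisor cells (right). Molar cell 22 gives 80.5% of the molar reads of Acta2 and 53.7% of those of Myl9, and incisor cell 28 gives 99.9% of the incisor reads of Tagln and 100% of those of Mrvi1. Cnn1 has no reads and no bar.

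The other genes lay within 2-fold in the summed counts. Myl9 had medians of 1579 and 1864 CPM and summed levels of 2520 and 2118 CPM in molar and incisor cells, a ratio of 1.19 (1.17 to 1.21), and without molar cell 22 it was 1.57-fold higher in incisor cells. Tpm1 had medians of 1122 and 555 CPM and summed levels of 1520 and 1162 CPM, a ratio of 1.31 (1.28 to 1.33). Without molar cell 22 its log2 ratio was -0.19. Tpm2 had medians of 270 and 385 CPM and summed levels of 392 and 501 CPM, 1.28-fold higher in incisor cells (1.24 to 1.32), and its log2 ratio was 0.17 without incisor cell 10.

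Cnn3 had medians of 817 and 1487 CPM and summed levels of 1586 and 1769 CPM, 1.12-fold higher in incisor cells (1.10 to 1.13), with a log2 ratio of 0.33 without incisor cell 10. Mylk had medians of 219 and 238 CPM and summed levels of 525 and 587 CPM, 1.12-fold higher in incisor cells (1.09 to 1.15). Leaving out molar cell 22 made Mylk 1.77-fold higher in incisor cells, and leaving out incisor cell 22 made it 1.70-fold higher in molar cells. Tagln had medians of 0 in both teeth and summed levels of 48.9 and 85.6 CPM, 1.75-fold higher in incisor cells (1.62 to 1.90). Incisor cell 28 held all but 1 of the incisor reads of Tagln, and without it the molar level was 588-fold higher, with a counting interval of 105 to 23230. For Acta2, Tagln, Cnn3, Myl9, Tpm1, Tpm2 and Mylk, then, the tooth with the higher sum changed when 1 cell was left out, and for Mrvi1 and Myh11 it did not.

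Over all 32 cells of each tooth the sums mixed mural-like and macrophage-like cells, 9 and 22 in molars and 6 and 26 in incisors. The mural-like cells held from 84.7% (Tpm1, incisor) to 100% of a tissue's reads of each gene. Of the 9 measured genes 2 were at least 2-fold higher in molars, Acta2 and Mrvi1, and 1 in incisors, Myh11, while of 9934 genes measured over all cells 22.8% were at least 2-fold higher in molars and 28.1% in incisors. The counts were 1 and 3 without molar cell 22, 5 and 1 without incisor cell 10, and 4 and 0 without incisor cell 22 or without incisor cell 28. Mrvi1 was at 159 CPM in molars and 39.4 in incisors, a ratio of 4.02 (3.84 to 4.22), which fell to 2.55 without molar cell 4. Tpm1 was at 662 and 369 CPM, a ratio of 1.80, and 1.19 without molar cell 22. Acta2, at 967 and 440 CPM, was higher in molars with that cell and 2.21-fold higher in incisors without it, and Myh11, at 21.6 and 49.4 CPM, was 1.29-fold higher in molars without incisor cell 28. Cnn3, Tpm2 and Mylk lay at ratios of 1.28, 1.17 and 1.25. Leaving out incisor cell 10 moved Cnn3 to 2.07 and Tpm2 to 1.97, and leaving out incisor cell 22 moved Mylk to 2.55. Without molar cell 22 the direction turned, with log2 ratios of -0.13 for Cnn3, -0.33 for Tpm2 and -0.41 for Mylk.

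**Figure D4:**
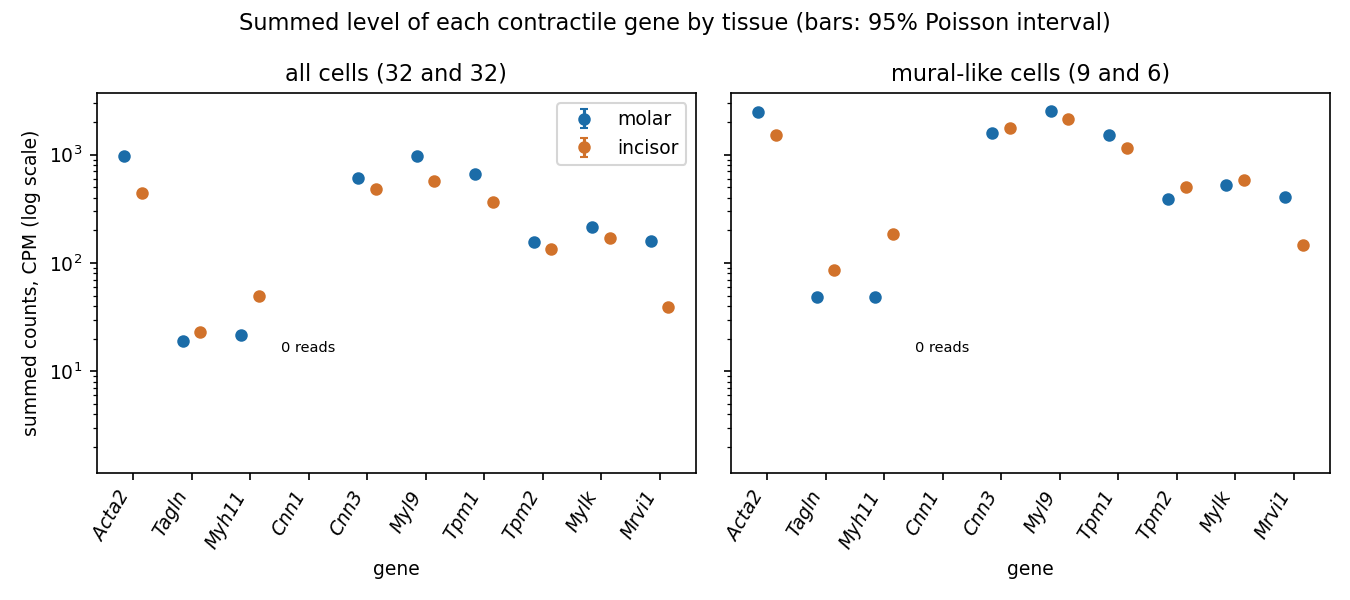
Summed CPM of each contractile gene (log scale) in molar and incisor, over all 32 cells of each tooth (left) and over the 9 and 6 mural-like cells (right), where the bars of the exact 95% Poisson interval are mostly smaller than the points. The points of Mrvi1 and Myh11 are the farthest apart in both panels, and no point shows the spread between cells.

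Against the macrophage-like cells, each of the 9 measured contractile genes was higher in the mural-like cells. A gene could pass the filter of 5 CPM through the mural-like cells alone, so the number is no support in itself. Over 9814 genes measured in this comparison 35.4% were at least 2-fold higher in the mural-like cells. Each of the 9 was also at least 2-fold higher within molars, where 36.1% of all genes measured were, and within incisors, where 35.9% were. The 10 genes gave 0.0148% of the summed counts of the macrophage-like cells. Tagln and Mrvi1 had 0 reads in 48 macrophage-like cells. Taking 3 cells as the limit for 0, up to 6.25% of such cells could hold a read, and up to 7.40% by the exact interval. With 3 reads over the group as the limit, the levels of Tagln (63.1 CPM) and Mrvi1 (307 CPM) in the mural-like cells were at least 1604-fold and at least 7807-fold higher. Without incisor cell 28 the bound for Tagln was at least 825-fold.

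Reads of Acta2, Myl9 and Cnn3 in macrophage-like cells came mostly from incisor cell 13, the cell with both marker sets. Acta2 had 1606 reads there, and in the other 23 macrophage-like cells with a read it had 1 to 4. Its summed level was 21.7 CPM against 2119 in the mural-like cells, a ratio of 97.8 (93.1 to 103), which was 3446 (2583 to 4707) without incisor cell 13 and 44.8 without molar cell 22. Myl9 had 327 reads in incisor cell 13 and 1 read in molar cell 5. Cnn3 had 299 reads in incisor cell 13, 3 in incisor cell 7 and 1 in molar cell 3. Over all macrophage-like cells the ratio was 549 (493.03 to 614.3) for Myl9 and 417 (372 to 468) for Cnn3. Without incisor cell 13, when 1 and 4 reads were left, the ratios were 176865 (31743 to 6985851) and 30984 (12101 to 113720). Tpm2 had 1 read in 48 cells, in molar cell 20, for a ratio of 33110 with a counting interval of 5942 to 1307842.

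**Figure D5:**
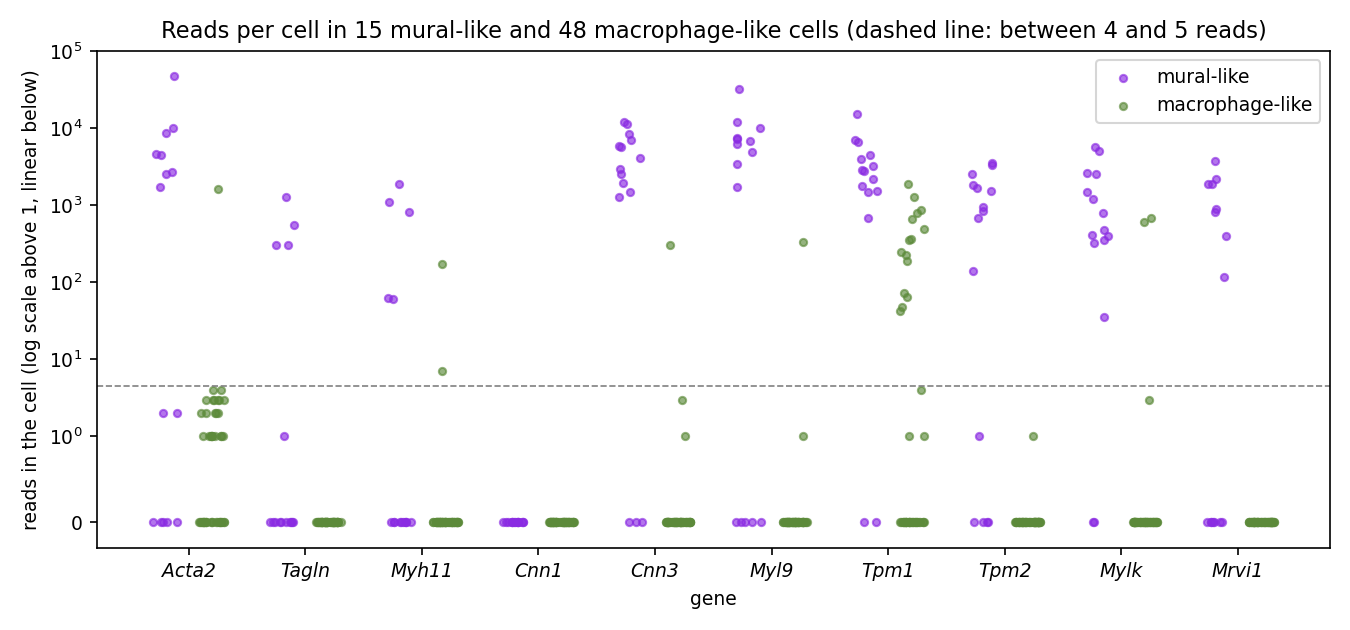
Reads of each contractile gene (vertical axis, log scale above 1 and linear below) in each of the 15 mural-like and 48 macrophage-like cells, 1 point a cell, spread sideways at random. Below the dashed line, between 4 and 5 reads, lie 23 of the 24 macrophage-like cells with a read of Acta2, while 15 of the 18 with a read of Tpm1 lie above it.

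Acta2 therefore looked different by share and by level. A read was present in 24 of 48 macrophage-like cells (50%, 35.2 to 64.8%) and in 10 of 15 mural-like cells (66.7%, 38.4 to 88.2%). After each cell was thinned to 1040000 reads it was present in 16 of 41 and 10 of 15. At 5 or more reads it was in 1 of 48 and 8 of 15. The 1 to 4 reads were spread over both teeth, in 13 of 22 molar and 10 of 26 incisor macrophage-like cells, at median totals of 1416209 and 1501944.5 counts. The 2 mural-like cells with 2 reads of Acta2 were in the range of the macrophage-like cells. Of the other actin genes, looked up after these values were seen, Acta1 (skeletal muscle alpha-actin) was also read at low level in 25 of 48 macrophage-like cells, with at most 12 reads, and Actb was read in all 48, at a summed 4046 CPM, whereas Actg2 and Actc1 were at 0 in all 48. In the mural-like cells Acta1 was read in 14 of 15, with 3041 reads (959 CPM) in molar cell 22 and at most 19 in the others. Whether the low reads of Acta2 are reads of another actin gene, or RNA from other cells, was not tested.

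Tpm1 differed from the other contractile genes in the macrophage-like cells. It had at least 5 reads in 15 of 48, with 1850 reads in molar cell 26 (1539 CPM), 1278 in molar cell 29, 870 in incisor cell 5 and 784 in incisor cell 4. Its summed level was 98.9 CPM against 1381 in the mural-like cells, a ratio of 13.96 (13.6 to 14.3), and 15.02 without incisor cell 13. Mylk and Myh11 were each carried by few cells. Mylk had 685 reads in incisor cell 13, 598 in molar cell 2 and 3 in molar cell 16, for a ratio of 32.6 (30.8 to 34.5), which was 68.3 without incisor cell 13 and 59.5 without molar cell 2. Myh11 had 173 reads in molar cell 29 and 7 in incisor cell 13, for a ratio of 42.7 (36.8 to 49.9), which was 1078 without molar cell 29 and 24.1 without incisor cell 28. Molar cell 29 thus had both Tpm1 and Myh11.

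The wider contractile program was described through 4 lists, with the members left out. Of 14 further smooth muscle filament and cytoskeleton genes, 13 were measured in the mural-like cells, and 7 were at least 2-fold higher in molar and 2 in incisor cells, with a median log2 ratio of 1.02. Of the 13 genes, 6 were at 0 in 1 of the teeth, and the median was the same with those at their bound, as for the lists below. Over all genes measured in these cells 31.4% were at least 2-fold higher in molar and 37.3% in incisor cells, against which the counts of this list and of the 3 that follow are to be read. Without molar cell 22 the counts were 4 and 4 and the median was -0.89. Cald1 (caldesmon, an actin and myosin binding protein) was read in 15 of 15 mural-like cells, at 1235 CPM in molar and 1502 in incisor cells, and was 165-fold higher in the mural-like than in the macrophage-like cells (152 to 178). Pdlim7, which links signalling proteins to the actin cytoskeleton, was at 299 and 319 CPM, and was 1.86-fold higher in incisor cells without molar cell 22. Smtn (smoothelin, of contractile smooth muscle) was at 235 CPM in 3 molar cells and at 0 in the incisor ones, so that its molar level was at least 1175-fold higher, or at least 602-fold without molar cell 15. Actg2 (smooth muscle gamma-actin), named after its values were seen, was read in 3 of the 15 cells.

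Of 24 genes that control calcium and phosphorylation, 19 were measured, 6 were at least 2-fold higher in molar and 3 in incisor cells, and the median log2 ratio was 0.47. Without incisor cell 10 the counts were 11 and 1, and without incisor cell 28 they were 4 and 2. Calm2, which encodes a calcium sensor, was at 1580 CPM in molar and at 1149 CPM in incisor cells. It was 1.37-fold higher in molar cells (1.35 to 1.40), and 2.21-fold without incisor cell 10. Rhoa, a small GTPase that acts on the actin cytoskeleton, was at 443 and 286 CPM, a ratio of 1.55 (1.495 to 1.61) that was 2.43 without incisor cell 22. Against the macrophage-like cells Calm2 and Rhoa were 1.96-fold and 1.69-fold higher, smaller ratios than those of the 9 measured contractile genes.

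Of the 6 transcription factors of contractile genes, 5 were measured in the mural-like cells, 1 was at least 2-fold higher in molar and 4 in incisor cells, and the median log2 ratio was -1.77. Klf4, which represses smooth muscle genes, was at 282 CPM in molar (8 of 9 cells) and 58.1 CPM in incisor cells (3 of 6), a ratio of 4.86 (4.53 to 5.22), and 13.7 without incisor cell 32. Mef2c was at 107 and 370 CPM, 3.44-fold higher in incisor cells, but 8.46-fold without molar cell 22 and 2.14-fold without incisor cell 22. Mkl2, a myocardin-related coactivator of SRF, was at 83.7 and 240 CPM, 2.87-fold higher in incisor cells, but 1.01-fold without incisor cell 2 and 6.59-fold without molar cell 4. Myocd (myocardin) was at 0 in molar cells and 41.1 CPM in incisor cells, all of it from cell 22. Srf was at 0 in molar cells and at 1.33 CPM in 2 incisor cells, below the filter, and was 38.5-fold higher in the macrophage-like cells (19.9 CPM in sum), a ratio of 23.8 without molar cell 30, 25.3 without incisor cell 18, 71.4 without incisor cell 10 and 70.8 without incisor cell 32.

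Of 11 non-muscle relatives of the contractile genes, 0 were at least 2-fold higher in molar and 4 in incisor mural-like cells, with 5 without molar cell 22 and 1 without incisor cell 10, and a median log2 ratio of -0.25. Actb (beta-actin) was at 1618 CPM in molar and 3589 in incisor cells, 2.22-fold higher in incisor cells, while Acta2, its smooth muscle counterpart, had the higher sum in molar cells only with molar cell 22. The ranges of Actb overlap, at 422 to 4542 CPM in molar and 13.8 to 8528 CPM in incisor cells, where cell 10 was the highest. Tpm4 was at 1845 and 1786 CPM, and Myl6, the essential light chain, at 1223 and 1045 CPM. Tpm4 and Myl6 were 7.06-fold and 3.11-fold higher in the mural-like than in the macrophage-like cells, whereas Actb was 1.70-fold higher in the macrophage-like cells.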

How the data were processed

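Single-cell RNA-seq was analysed for 64 cells. The table deposited by the authors holds unnormalized counts, whole numbers of reads for each symbol in each cell. Per the submitters' processing notes, the tools included Trim Galore, HISAT2 (2) and Seurat (3), and the genome build was mm10. How reads were counted, with which annotation and strand setting, and whether cells were filtered is not given in the sources used here. By name, 64 columns of the table matched a labelled cell and 124 matched none and were not used. Another 24 symbols read as dates and were left as they are.

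For each class, counts were summed over cells and divided by the summed totals to give CPM. Log2 ratios used a pseudocount of 1 CPM. A gene counted as measured at a mean of at least 5 CPM over the 2 groups compared, and as called at 2-fold. Intervals are exact at the 95% level (Poisson for reads, Clopper-Pearson for shares of cells). The limit used for 0 is 3 reads over the group, or 3 cells. Intervals and limits cover counting error only: without molecular identifiers, several PCR reads can come from 1 molecule, so the intervals on reads are too narrow. For shares, cells were also thinned to 1040000 reads, which left out 1 molar, 6 incisor and 0 mural-like cells. Doublets were not called. Positions and exon lengths are from GENCODE M21, and promoter windows from RefSeq (GRCm38.p6). Python 3.11.15, NumPy 2.4.6, pandas 2.3.3, SciPy 1.17.1 and matplotlib 3.10.9 were used. The code for the ratios was checked on simulated Poisson counts with known folds over all cells. The simulated cells of a tooth differed only in depth and counting error. The check therefore does not bear on how far a ratio rests on single cells.

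Genes named are the 10 contractile genes, Rgs5 and Csf1r, the 3 genes with the most mural-like counts of each wider list, Myocd and Srf, and the 5 genes, predicted genes left out, with the highest rho with the mean of the 10. One gene that this rule names is not reported here. The genes and lists were chosen with earlier results of these data known. Alternatives were equal weight for each cell, a pseudocount of 0.1 or 10 CPM, no filter on low values, leaving out the 50 most abundant genes, other class thresholds, other read minimums and depths, and leaving out each cell. Leaving out cells for the wider lists and for the counts past 2-fold, leaving out incisor cell 13 from the macrophage-like cells, and leaving Rgs5 and Csf1r out of the marker lists, were chosen after seeing the data.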

Additional observations from a re-analysis of the deposited data

Results flagged for a closer look

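Single cells stood apart from the others of their tooth in 8 of 36 tails examined, the highest and lowest cell of 18 groups of mural-like cells, by the gap to the nearest cell over the whole range of log2(CPM + 1). Chance flags about 1 in 20 such groups where values are normally distributed, which does not hold for groups with several cells at 0, so the number of cells that stand apart is not to be read against it. On the high side, incisor cell 28 stood apart for Tagln (429 CPM) and for Mrvi1 (736 CPM). On the low side, incisor cell 2 was at 0 for Cnn3 and Myl9, incisor cell 24 was at 0 for Tpm1 and Tpm2, molar cell 15 was at 0 for Tpm1 and molar cell 23 was at 0 for Mylk.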

How the results depend on the processing

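The median log2 ratio of the contractile genes, molar over incisor, was 0.35 over all cells. It was 0.46 with each cell weighted equally and 0.41 without the 50 most abundant genes, and ran from -0.33 to 1.05 when each cell was left out. In the mural-like cells it was -0.16. It was -0.0691 with equal weight, -0.0661 without the most abundant genes, -0.28 with Rgs5 at 5000 CPM or more and -0.00824 where Csf1r, C1qa and Ptprc were all at 0. It ran from -0.81 to 0.32 when each cell was left out, with the sign changed for 4 of 15 cells. Over all cells the log2 ratio of Acta2 was 1.13 and ran from -1.14 (without molar cell 22) to 1.81 when each cell was left out, and that of Myh11 was -1.16 and ran from -3.32 to 0.34 (without incisor cell 28). The cause was not tested. Acta2 was read in 1 macrophage-like cell at 5 or more reads, against 24 at 1 or more.

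Medians of the wider lists when each mural-like cell was left out, chosen after seeing the data, ran from -0.89 to 2.002 for filament genes, 0.26 to 1.33 for calcium and phosphorylation control, -3.05 to -1.22 for transcription factors and -0.77 to 0.0249 for non-muscle relatives. The filament median of -0.89 (1.02 with all cells) is the one without molar cell 22. The 9 genes higher in mural-like than macrophage-like cells numbered 9 under the 63 cells left out in turn and the other 6 settings. No paired analysis was possible because the labels number cells within each tooth, the numbers pair no cells, and the results come from no test. Depth and the number of cells limit statements on genes at 0, and with no animal named the spread between mice is unknown.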
